A study of Mus musculus with 22 samples.

Results

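The 10 mouse genes described here are the IL-6 family cytokine and STAT3 genes, chosen by symbol: the ligands Lif, Clcf1, Cntf and Il6, the receptor subunits Il6ra, Il6st, Lifr and Osmr, the inhibitor Socs3 and the transcription factor Stat3. The count table held 29367 genes, among them 9 of these 10, and Il6 was not analysed here. Their mRNA was measured in astrocytes of the optic nerve head (ONH, the unmyelinated part of the nerve behind the eye) and of the optic nerve proper (ONP, the myelinated stretch just behind it). Tissue was taken at 7 or 30 days after microbeads were injected into 1 eye to raise the intraocular pressure (IOP), so every group had received microbeads.

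All mice were Rpl22 HA/HA ribotag mice on a C57Bl/6 background, which the sample labels list as WT, aged 3 to 4 months. A constitutive Cre under the mouse GFAP promoter put the HA tag on ribosomes of astrocytes and of any other cell in which that promoter had been active. There were 4 groups: ONH at 7 days (n = 4), ONP at 7 days (n = 4), ONH at 30 days (n = 7) and ONP at 30 days (n = 7). Each of the 22 libraries was made from HA-precipitated mRNA of a pool of 4 mice, 2 male and 2 female. Both regions came from the same mice, but the study's methods do not say that equal replicate numbers mark a pool. At 30 days the ONH and ONP libraries of equal number were taken as the same pool. The counts of pools and the fits with the pool as a block rest on that assumption. The 7 day libraries are known here by region and a library number only. Samples of mice without elevated IOP were not analysed here, so no value below says whether a gene differed from the uninjured nerve.

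Cytokines of this family share a signaling subunit, gp130, encoded by Il6st. The other receptor subunits (LIFR, OSMR, IL-6RA and the CNTF receptor) decide which ligand binds, and binding activates JAK kinases that phosphorylate STAT3. STAT3 then enters the nucleus and drives target genes, including Socs3, whose product blocks the receptor and closes a feedback loop. In the injured brain and optic nerve, STAT3 in astrocytes is known for driving GFAP and the reactive state, and CNTF and LIF are known for acting on retinal ganglion cells.

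Libraries held 16292489 to 33307092 counts, so that 3 counts, taken as the smallest detectable amount, were worth 0.0901 to 0.184 CPM (counts relative to the library's total). This limit covers counting error only. Levels are given as CPM scaled by TMM factors, and differences as log2FC with their standard error (SE) and a p adjusted over all genes tested, with under 0.05 as the threshold. Gene positions are in build GRCm38 (mm10). All 10 astrocyte markers were detected, with summed levels of 14600 to 33600 CPM. Markers of other cells were present as well: the 10 oligodendrocyte markers summed to 13900 to 41900 CPM in the ONH, 82800 to 108000 CPM in the ONP at 7 days and 26100 to 84800 CPM in the ONP at 30 days. The 12 microglia and macrophage markers, none of them at 0 throughout a group, stood apart in 3 libraries at 30 days, at 4010 CPM (ONH replicate 7), 3700 CPM (ONP replicate 5) and 4650 CPM (ONP replicate 7). The other libraries at 30 days ranged from 182 to 1530 CPM in the ONH and from 252 to 1260 CPM in the ONP, and those at 7 days from 201 to 2620 CPM. These 3 libraries were also left out together where a member's result rests on them. That fit kept every 7 day library, at 1580 to 2620 CPM in the ONP, above the 252 to 1260 CPM left there at 30 days. It is therefore no control for microglia RNA between the days. ONH replicate 7 also had 224 CPM of pituitary markers, against 5.43 CPM at most in the ONP at 30 days. In mRNA precipitated from pooled tissue, fewer cells of a type, less RNA per cell and less of that RNA in the precipitate cannot be told apart.

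Il6st and Lifr were lower in the ONH than in the ONP libraries at both days, with ranges that did not overlap, whereas Osmr was higher in the ONH at 30 days. Between 7 and 30 days no member passed the test in the ONH, where 0% of all 15668 genes tested passed. In the ONP, where 17% of all genes tested passed, Stat3 and Il6ra fell. The log2FC of Stat3 was -0.57 in the ONH and -0.53 in the ONP. No member's change over time differed between the regions by the test of that difference.

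**Figure D1:**
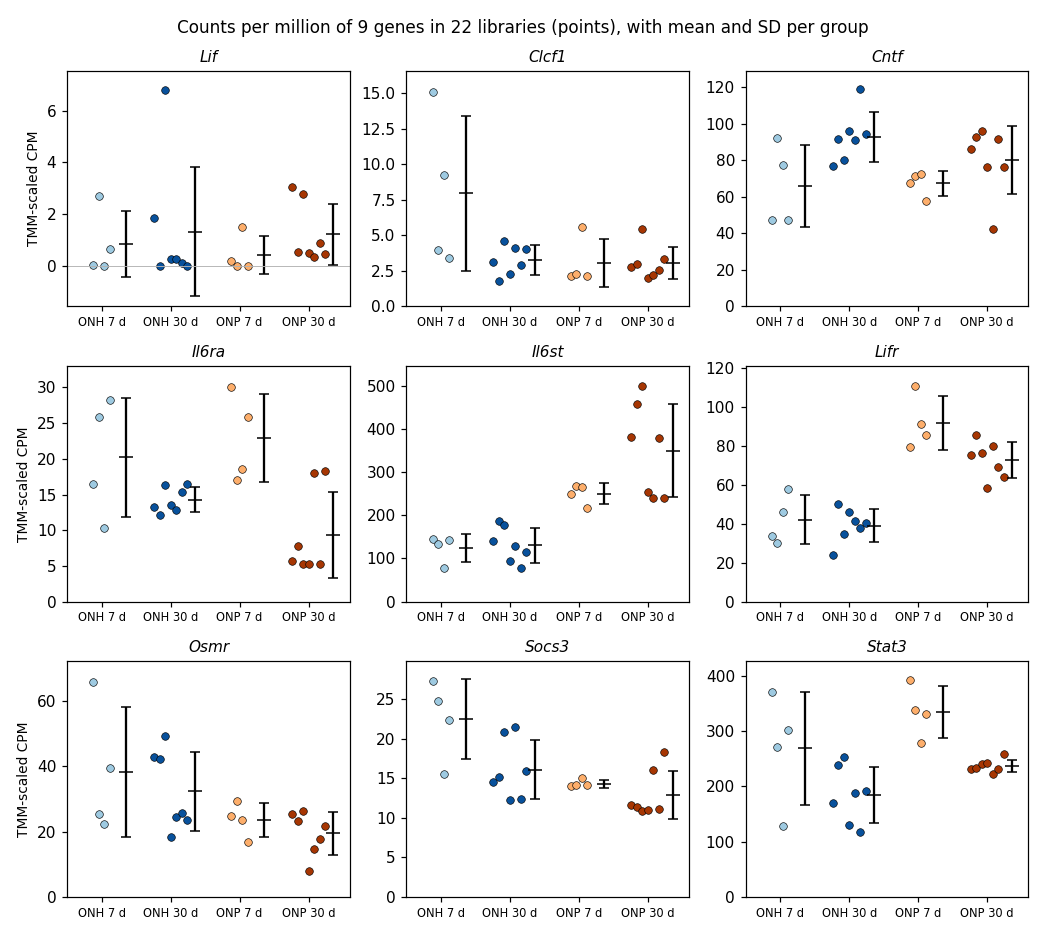
Each panel shows 1 gene, with a point per library on the y axis in TMM-scaled CPM, in the ONH and ONP at 7 days (n = 4 each) and 30 days (n = 7 each), and the mean with SD at the right of each group. Il6st and Lifr separate the ONP from the ONH at both days, the 7 ONP libraries of Stat3 at 30 days lie between 223 and 258 CPM, and Il6ra in the ONP at 30 days has 2 libraries near 18 CPM above 5 libraries of 5.22 to 7.81 CPM.

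Il6st (ENSMUSG00000021756, chr13:112464070-112510086) encodes gp130, the subunit that the whole family signals through. At 7 days it measured 250, 268, 265 and 216 CPM in the ONP and 145, 133, 77.4 and 142 CPM in the ONH. The lowest, median and highest values at 30 days were 239, 380 and 499 CPM in the ONP and 77, 129 and 187 CPM in the ONH. At each day every ONP library was above every ONH library. The log2FC of ONH over ONP was -0.99 (SE 0.21, adjusted p = 0.0112) at 7 days and -1.42 (SE 0.23, adjusted p = 0.000194) at 30 days, a level 1.98-fold and 2.67-fold lower in the ONH. Among pools at 30 days, the ONP was the higher of the pair in 7 of 7, with log2 ratios of ONH to ONP from -2.3 to -0.89. The call held without each library in turn, with adjusted p between 0.00404 and 0.0418 at 7 days and between 0.000163 and 0.000576 at 30 days. At 7 days neither Il6st (adjusted p = 0.072) nor Lifr (adjusted p = 0.0757) passed on only the 6 libraries whose column numbers occur in both regions, and with that number as a block the adjusted p were 0.0849 and 0.0871.

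Within the ONP at 30 days, Il6st was at 381, 458, 499 and 380 CPM in replicates 1, 2, 3 and 6, whose astrocyte markers summed to 28700 to 33600 CPM. It was at 254, 239 and 241 CPM in replicates 4, 5 and 7, whose astrocyte markers summed to 23900, 15000 and 20400 CPM. Markers of other cells split the same replicates the other way. Oligodendrocyte markers summed to 67500, 84800 and 57800 CPM in replicates 4, 5 and 7, and to 26100 to 54000 CPM in replicates 1, 2, 3 and 6. Microglia markers summed to 1260, 3700 and 4650 CPM, and to 252 to 406 CPM. Over time in the ONP its log2FC was 0.46 (SE 0.21, adjusted p = 0.156). Without the 3 libraries high in microglia markers, among them the ONP replicates lowest in Il6st (5 and 7), it was 0.66 (SE 0.17, adjusted p = 0.0173). The part that RNA of these or other cells had in these values was not tested.

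Lifr (ENSMUSG00000054263, chr15:7090614-7197489) encodes the LIF receptor, which pairs with gp130 for LIF, CNTF and CLCF1. It measured 79.3, 111, 91.1 and 85.6 CPM in the ONP and 33.9, 30.2, 46 and 58.1 CPM in the ONH at 7 days. At 30 days the lowest, median and highest values were 58.6, 75.5 and 85.4 CPM in the ONP and 24.2, 40.2 and 50.2 CPM in the ONH. As for Il6st, the ranges did not meet at either day. The log2FC of ONH over ONP was -1.11 (SE 0.23, adjusted p = 0.00965) at 7 days and -0.90 (SE 0.14, adjusted p = 0.00018) at 30 days. The ONP was higher in 7 of 7 pools at 30 days, least so in replicate 4 (45.9 CPM in the ONH and 58.6 CPM in the ONP). Its log2FC over time in the ONP was -0.37 (SE 0.12, adjusted p = 0.0539), just outside the threshold, and in the ONH -0.13 (SE 0.22, adjusted p = 0.821).

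Markers of other cells also separated the regions. The 6 oligodendrocyte precursor markers summed to 361 to 523 CPM in the ONH and 1520 to 1930 CPM in the ONP at 7 days, and to 331 to 718 CPM and 892 to 1510 CPM at 30 days. The oligodendrocyte sums did not overlap at 7 days (19000 to 36100 CPM in the ONH and 82800 to 108000 CPM in the ONP) and did at 30 days. The 8 pigment cell markers were higher in the ONH at both days (152 to 1250 CPM against 9.63 to 15.1 CPM at 7 days, and 102 to 718 CPM against 4.63 to 10.2 CPM at 30 days), as were the 9 photoreceptor markers. The astrocyte sums overlapped between the regions at both days. The part of RNA from these cells in the differences of Il6st, Lifr and Osmr between regions was not tested.

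Osmr (ENSMUSG00000022146, chr15:6813577-6874969) encodes the oncostatin M receptor, another partner of gp130. At 30 days its lowest, median and highest values were 18.4, 25.8 and 49.3 CPM in the ONH and 7.99, 21.7 and 26.4 CPM in the ONP. These ranges overlapped, yet the ONH was higher in 7 of 7 pools, with log2 ratios from 0.11 to 1.19. The log2FC of ONH over ONP was 0.72 (SE 0.27, adjusted p = 0.0425), and 0.73 (SE 0.14, adjusted p = 0.00133) with the pool as a block. Without the block the call was lost when any of 7 libraries was left out (ONH replicates 1, 2 and 3 and ONP replicates 4, 5, 6 and 7), with adjusted p up to 0.088. At 7 days the values were 65.9, 25.5, 22.3 and 39.4 CPM in the ONH and 24.7, 29.4, 23.4 and 16.9 CPM in the ONP, and the log2FC of 0.72 (SE 0.34, adjusted p = 0.193) did not pass. The ONH at 7 days spread over a wider range than any other group, with library 1 the highest.

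**Figure D2:**
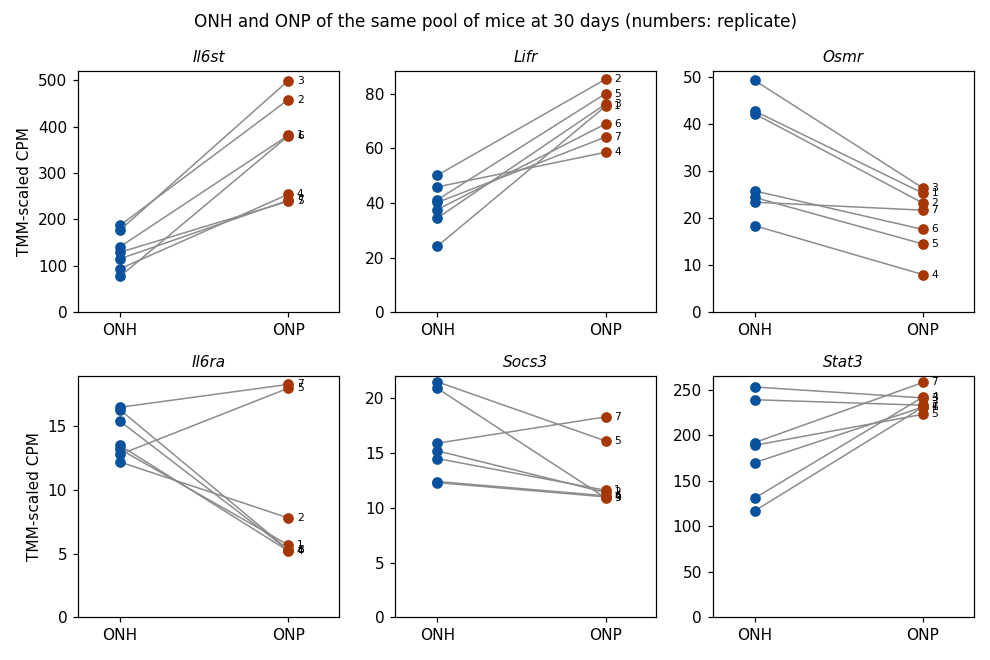
Lines join the ONH (blue) and ONP (brown) libraries of equal replicate number at 30 days, taken as 7 pools, for 6 genes. The y axis is TMM-scaled CPM from 0, and the replicate number stands at the ONP point. All 7 lines go up for Il6st and Lifr and down for Osmr, while Il6ra and Socs3 go against their other pools in replicate 7, and Il6ra also in replicate 5.

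Il6ra (ENSMUSG00000027947, chr3:89864059-89913196) encodes the IL-6 binding subunit. In the ONP it measured 30.1, 17.1, 18.6 and 25.8 CPM at 7 days. At 30 days it measured 5.69, 7.81, 5.31, 5.22 and 5.28 CPM in replicates 1, 2, 3, 4 and 6, and 18 and 18.3 CPM in replicates 5 and 7. The latter 2 were the ONP libraries highest in microglia markers and lay within the range of the 7 day libraries, whose microglia markers summed to 1580 to 2620 CPM. The fall over time had a log2FC of -1.32 (SE 0.39, adjusted p = 0.0376), and -1.96 (SE 0.21, adjusted p = 0.00033) without the 3 libraries high in microglia markers. Replicates 5 and 7, left out in the latter fit, had the highest Il6ra of the 30 day ONP libraries, so their removal by itself made the fall larger. The call was lost when any 1 of 9 libraries was left out (each 7 day library and ONP replicates 1, 2, 3, 4 and 6), with adjusted p from 0.0539 to 0.108. ONP replicate 4, at 5.22 CPM of Il6ra, had 1260 CPM of microglia markers. The part of microglia RNA in the fall was not tested.

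Il6ra in the ONH ranged from 12.2 to 16.5 CPM at 30 days, the latter in replicate 7, and measured 16.5, 25.8, 10.3 and 28.2 CPM at 7 days. ONH over ONP at 30 days gave a log2FC of 0.61 (SE 0.31, adjusted p = 0.123). With the pool as a block it was 0.81 (SE 0.27, adjusted p = 0.0295), and without the 3 libraries it was 1.21 (SE 0.17, adjusted p = 0.000178). The ONH was higher in the 5 pools other than 5 and 7. Its change over time differed between the regions by -0.78 (SE 0.49, adjusted p = 0.547), and by -1.39 (SE 0.35, adjusted p = 0.0725) without the 3 libraries. At 7 days the difference was -0.16 (SE 0.33, adjusted p = 0.792).

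Stretches of 250 bases before the RefSeq start of a gene (build GRCm38.p6, mm10) are shown for Il6st and its partner Lifr, which differed between regions at both days, and for Stat3, which fell in the ONP. They were searched on both strands for TTCNNNGAA, the palindrome that STAT dimers bind, and for the variant TTNCNNGAA, with matches in capitals. A sequence that fits both was counted for both motifs. Of 32851 promoters of this length, 7.02% held the first motif and 11.1% the second.
Il6st, chr13:112463820-112464069, plus strand: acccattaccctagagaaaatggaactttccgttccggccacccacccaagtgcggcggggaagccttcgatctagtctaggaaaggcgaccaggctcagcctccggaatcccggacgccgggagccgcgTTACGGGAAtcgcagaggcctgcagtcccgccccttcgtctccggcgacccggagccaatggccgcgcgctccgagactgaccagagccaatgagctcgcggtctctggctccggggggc
Lifr, chr15:7140292-7140541, plus strand: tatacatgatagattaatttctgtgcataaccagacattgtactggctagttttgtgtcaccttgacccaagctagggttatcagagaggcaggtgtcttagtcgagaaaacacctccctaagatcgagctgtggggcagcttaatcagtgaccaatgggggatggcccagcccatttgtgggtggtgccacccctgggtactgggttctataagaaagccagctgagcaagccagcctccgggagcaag
Stat3, chr11:100939541-100939790, minus strand: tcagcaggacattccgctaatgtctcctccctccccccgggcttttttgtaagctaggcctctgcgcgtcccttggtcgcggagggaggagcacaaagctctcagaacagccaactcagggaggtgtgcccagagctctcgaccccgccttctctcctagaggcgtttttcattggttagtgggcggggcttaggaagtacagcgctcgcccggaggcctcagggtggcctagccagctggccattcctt

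The Il6st stretch, upstream of the first exon, held 1 match of the variant, 120 bases before the start. No letters of either motif were in the Stat3 stretch or in the 2 stretches before RefSeq starts of Lifr, the one shown being the stretch that overlaps no exon. The Lifr stretch shown lies inside the annotated gene (chr15:7090614-7197489), not before its first exon. Socs3, the feedback gene, held TTCTTAGAA 154 bases before its start, within the stretch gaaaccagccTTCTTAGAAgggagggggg (chr11:117969502-117969530, minus strand). Osmr held TTCCCGTAA, the variant read on the other strand, 35 bases before its start, in ccccggcgctTTCCCGTAActcccgcccc (chr15:6874330-6874358, minus strand), which an annotated Osmr exon covers. The 250 base stretch of Socs3 also lies inside its annotated gene, with 77 bases covered by Socs3 exons. These matches describe letters and show no binding.

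Stat3 (ENSMUSG00000004040, chr11:100885098-100939540) had the smallest adjusted p of the members over time. In the ONP it measured 393, 339, 278 and 331 CPM at 7 days. Replicates 1 to 7 at 30 days measured 231, 233, 241, 242, 223, 231 and 258 CPM. All 7 libraries at 30 days were below all 4 at 7 days, with a group mean of 335 CPM ± 46.7 (SD, n = 4) and 237 CPM ± 11.3 (SD, n = 7). The log2FC was -0.53 (SE 0.09, adjusted p = 0.00324), a level 1.44-fold lower at 30 days. It passed without each library in turn (adjusted p from 0.0023 to 0.0162) and without the 3 libraries high in microglia markers (log2FC -0.50, SE 0.10, adjusted p = 0.00449). It did not pass when all 4 groups shared an estimate of spread (log2FC -0.50, adjusted p = 0.149), a fit whose spread also takes in the ONH libraries. Markers of other cells were lower in the same ONP libraries: the 10 endothelial markers went from 144 to 186 CPM at 7 days to 16.9 to 119 CPM at 30 days and the oligodendrocyte precursor markers from 1520 to 1930 CPM to 892 to 1510 CPM, without overlap. The oligodendrocyte sums overlapped only through replicate 5, at 84800 CPM. The microglia and macrophage sums had a median of 1990 CPM at 7 days and 406 CPM at 30 days. Replicates 5 and 7 at 30 days lay above all 7 day ONP libraries in these sums and the other replicates below them. The part of RNA from these cells in the fall of Stat3 or of Il6ra was not tested.

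In the ONH, Stat3 measured 372, 271, 129 and 302 CPM at 7 days. At 30 days its lowest, median and highest values there were 117, 189 and 253 CPM. Library 5 at 7 days lay among the 30 day libraries and the other 3 above them. The log2FC of -0.57 (SE 0.27, adjusted p = 0.369) was close to that in the ONP, but its SE was wider than the 0.09 of the ONP. Without library 5 it was -0.80, still short of the threshold at adjusted p = 0.0916. The difference between the regions in the change over time was 0.04 (SE 0.30, adjusted p = 0.977). At 30 days Stat3 differed between ONH and ONP by -0.36 (SE 0.15, adjusted p = 0.0712), and by -0.41 (SE 0.14, adjusted p = 0.0317) with the pool as a block, the ONP being higher in 5 of 7 pools. At 7 days the difference was -0.30 (SE 0.28, adjusted p = 0.515).

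Socs3 (ENSMUSG00000053113, chr11:117966079-117970047) encodes the inhibitor that STAT3 induces. At 7 days it measured 27.3, 24.8, 15.6 and 22.4 CPM in the ONH and 14, 14.2, 15.1 and 14.1 CPM in the ONP, so every ONH library was above every ONP library. The log2FC was 0.67 (SE 0.23, adjusted p = 0.0842), outside the threshold, while DESeq2 gave an adjusted p of 0.0303. At 30 days the values were 12.3, 15.2 and 21.5 CPM (lowest, median, highest) in the ONH and 10.9, 11.4 and 18.3 CPM in the ONP, with a log2FC of 0.32 (SE 0.18, adjusted p = 0.165). The highest ONP libraries at 30 days were replicate 5 (16.1 CPM) and replicate 7 (18.3 CPM), the same 2 in which Il6ra and microglia markers were high. Without the 3 libraries high in these markers the log2FC was 0.49 (SE 0.18, adjusted p = 0.0501). Over time Socs3 did not pass in the ONH (log2FC -0.51, SE 0.22, adjusted p = 0.338) or in the ONP (log2FC -0.18, SE 0.17, adjusted p = 0.492).

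**Figure D3:**
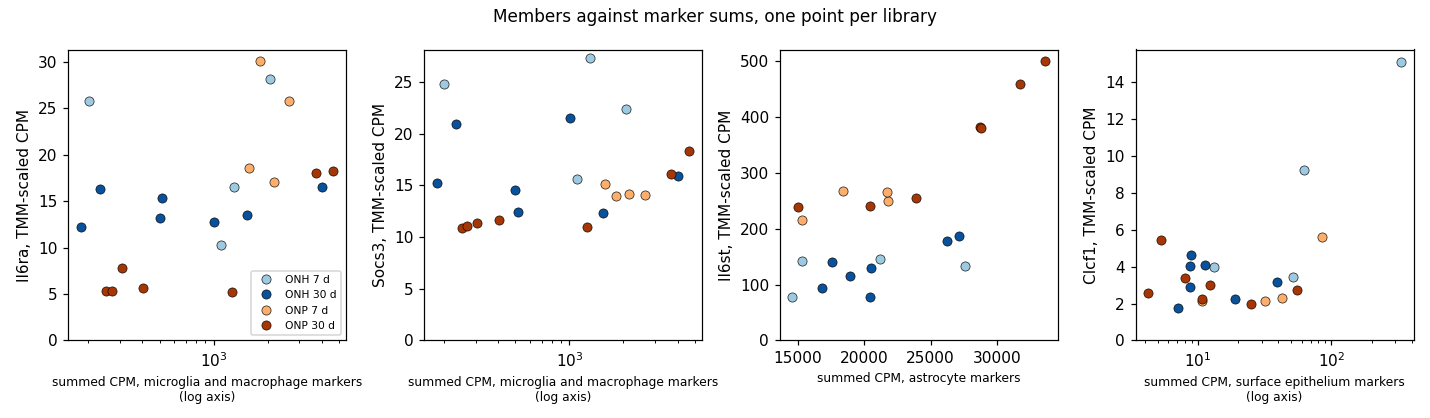
Points are the 22 libraries, with a member's TMM-scaled CPM on the y axis and the summed CPM of a cell type's markers on the x axis (log axes except for astrocytes). In the ONP at 30 days (brown), Il6ra and Socs3 are high in the libraries with 3700 and 4650 CPM of microglia markers, Il6st is high where astrocyte markers are, and the ONH library at 7 days with 15.1 CPM of Clcf1 has the highest sum of surface epithelium markers.

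The ligands were low, apart from Cntf. Lif (ENSMUSG00000034394, chr11:4257557-4272514), known as an early injury cytokine, was at or under 3 counts in 2 of 4 and 3 of 7 ONH libraries at 7 and 30 days and in 3 of 4 ONP libraries at 7 days. In all 7 ONP libraries at 30 days it was above 3 counts, with 0.341, 0.558 and 3.06 CPM as lowest, median and highest. The log2FC over time in the ONP was 1.44 (SE 1.09, adjusted p = 0.389), where library 5 at 7 days alone had 1.52 CPM. Without that library the adjusted p was 0.0452, with the remaining 7 day libraries at or under 3 counts. Lif was not tested between regions at 7 days, since too few libraries reached the count needed.

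Clcf1 (ENSMUSG00000040663, chr19:4214238-4223490) encodes cardiotrophin-like cytokine, which signals through the CNTF receptor. It measured 15.1, 3.98, 9.24 and 3.42 CPM in the ONH at 7 days, against a range of 1.77 to 5.58 CPM over the other 3 groups. The log2FC was -1.31 (SE 0.42, adjusted p = 0.231) for 30 over 7 days in the ONH and 1.40 (SE 0.57, adjusted p = 0.132) for ONH over ONP at 7 days. The change over time was 1.28 (SE 0.57) more positive in the ONP, with an unadjusted p of 0.0359 and an adjusted p of 0.36. These values rest on libraries 1 and 5 of the ONH at 7 days. Their surface epithelium markers summed to 332 and 62 CPM, against 13.1 and 52 CPM in libraries 3 and 6, and the part of that RNA was not tested.

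Cntf (ENSMUSG00000079415) encodes ciliary neurotrophic factor, made by astrocytes and Schwann cells. Its ONH means were 65.9 CPM ± 22.4 (SD, n = 4) at the earlier day and 92.7 CPM ± 13.6 (SD, n = 7) at the later. Its ONP means were 67.4 CPM ± 6.76 (SD, n = 4) and 80.2 CPM ± 18.4 (SD, n = 7). It passed in none of the comparisons, with log2FC of 0.47 (adjusted p = 0.33) over time in the ONH and 0.22 (adjusted p = 0.434) in the ONP. ONP replicate 5 at 30 days was the lowest library at 42.3 CPM, and its astrocyte markers were the lowest of that group at 15000 CPM. Without the 3 libraries high in microglia markers, of which it is 1, the ONP log2FC was 0.40 (SE 0.10, adjusted p = 0.0172). The Cntf locus (chr19:12763660-12765632, minus strand) lies wholly within Zfp91 on the same strand (chr19:12763660-12796126), so its reads could not be fully told apart from transcripts of Zfp91 that run through it.

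**Figure D4:**
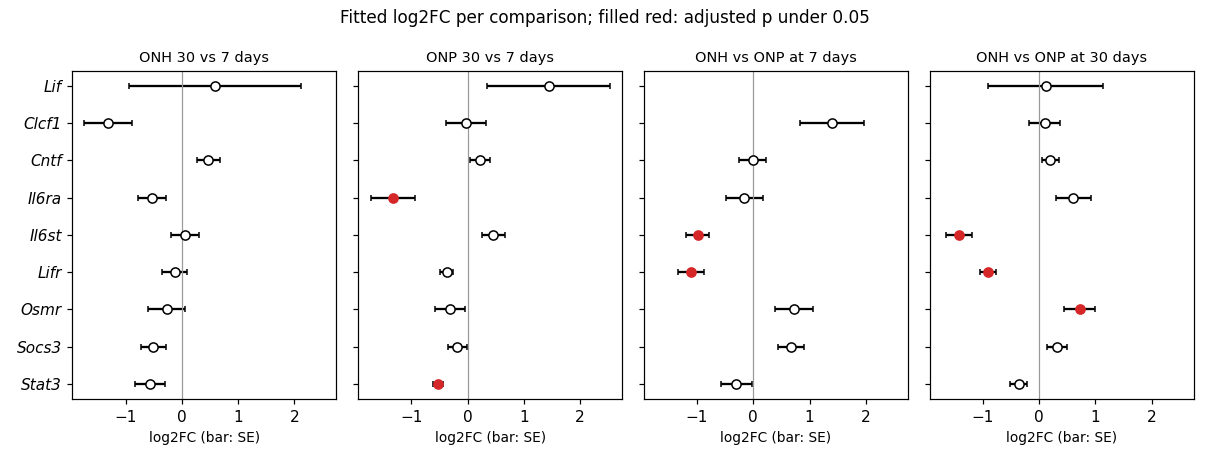
Points give each member's fitted log2FC with its SE as a bar on the x axis for 4 comparisons, filled red where the adjusted p was under 0.05. Il6st and Lifr are below 0 in both comparisons of ONH over ONP, and Osmr is above 0 at 30 days. Stat3 and Il6ra are below 0 for 30 over 7 days in the ONP. No point is filled for 30 over 7 days in the ONH, where 0% of all genes passed.

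Counted over the members, 0 of 9 tested passed for 30 over 7 days in the ONH, where 0% of all 15668 genes tested passed by edgeR. At an unadjusted p under 0.05 there were 3 members (Clcf1, Cntf and Socs3) and 13.9% of all genes, and DESeq2 called 0 members and 446 genes (2.49%). Groups overlapped for all 9 members there, and did not overlap for 2.28% of all genes. In the ONP 2 of 9 passed, both lower, against 17% of all genes (9.21% lower and 7.82% higher), and DESeq2 called the same 2 members and 20.2% of genes. Between regions at 30 days 3 of 9 passed, 2 lower and 1 higher in the ONH, against 41.8% of all genes (20% lower and 21.8% higher) and 36.8% by DESeq2, so the share of members called was not above that background. At 7 days 2 of 8 passed, both lower in the ONH, against 13.2% of all genes (6.81% lower and 6.34% higher), and DESeq2 called 3 members and 19% of genes. Members whose groups did not overlap were 1 of 9 (Stat3) in the ONP over time, 2 of 9 (Il6st and Lifr) between regions at 30 days and 3 of 8 (with Socs3) at 7 days, where 12%, 16.3% and 21.7% of all genes did not overlap. The region by day difference passed for 0 of 9 members by edgeR and by DESeq2, with 1 at an unadjusted p under 0.05, against 0.543% of all genes by edgeR, 2.28% by DESeq2 and 12.6% at an unadjusted p under 0.05. The median log2FC of the members was -0.27 in the ONH and -0.18 in the ONP over time, with -0.02 and -0.01 for all genes.

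Per kilobase of exon, Cntf had the highest mean level of the 9 genes in every group, from 61.4 to 86.4 CPM per kb, and Lif the lowest, from 0.0979 to 0.306 CPM per kb. Stat3 came next after Cntf at 28.2 and 19.3 CPM per kb in the ONH at 7 and 30 days and at 35.2 CPM per kb in the ONP at 7 days, with Il6st at 11.2, 11.8 and 22.5 CPM per kb. In the ONP at 30 days Il6st, at 31.6 CPM per kb, stood before Stat3, at 24.9 CPM per kb, but their libraries overlapped per kb (21.5 to 45 for Il6st and 23.4 to 27.1 for Stat3). Socs3 lay at 4.47 to 7.79 CPM per kb, Lifr at 3.63 to 8.52, Osmr at 1.61 to 3.16, Il6ra at 1.08 to 2.65 and Clcf1 at 0.799 to 2.09 CPM per kb. Cntf and Stat3 did not overlap per kb in any group, and Stat3 and Il6st did not overlap in the ONP at 7 days. The ranges of other neighbours in the order met in some groups: Cntf and Il6st in the ONP at 30 days, Stat3 and Il6st in the ONH at 30 days, Il6st and Socs3 in the ONH at both days, Socs3 and Lifr in both regions at 30 days and the ONH at 7 days, Lifr and Osmr in the ONH at both days, Osmr and Il6ra in all 4 groups, Il6ra and Clcf1 in the ONH at 7 and the ONP at 30 days, Osmr and Clcf1 in the ONP at 7 days, and Clcf1 and Lif in both regions at 30 days. Among neighbours in this order, Lifr and Osmr in the ONH swapped places when the longest transcript was used as the length in place of all exons, as did Il6ra and Osmr in the ONP at 7 days.

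Over the 22 libraries, the gene whose log2 CPM was most like that of Stat3 among 16748 genes was Sec61a1 (Pearson r = 0.935), followed by Stau1 (0.931), Hadha (0.924), Sec23b (0.921) and Rsu1 (0.912). For Socs3 they were Bhlhe40 (0.849), Rbms1 (0.845), Nmt1 (0.833), Tuba1c (0.832) and Nr1d1 (0.821). For Osmr they were Sulf1 (0.902), Plod2 (0.872), Ap1s2 (0.856), Slc35f1 (0.849) and Prokr2 (0.845). With the group means removed, r over the 22 libraries lay between 0.849 and 0.914 for the genes named with Stat3. It lay between 0.633 and 0.805 for those named with Socs3, and between 0.788 and 0.874 for those named with Osmr. No group was examined alone, and the genes were picked for their r in these same libraries. The libraries share depth and cell makeup, and these values are a description.

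Of 66 other genes of the pathway, listed by role, 65 were in the table. Il11ra1 and Cntfr, receptors of other members of the family, also differed between the regions. Il11ra1, the IL-11 receptor, measured 215 CPM ± 80.2 (SD, n = 4) in the ONH and 115 CPM ± 11.8 (SD, n = 4) in the ONP at 7 days, with a log2FC of 0.92 (SE 0.25, adjusted p = 0.0364), and of 0.51 (SE 0.16, adjusted p = 0.0179) at 30 days. It also rose in the ONP between 7 and 30 days (log2FC 0.57, SE 0.16, adjusted p = 0.0286). Near-identical copies of it (Il11ra2) have rows of their own, so its counts are uncertain. Cntfr, which binds CNTF and CLCF1, was lower in the ONH at 30 days, at 6.3 CPM ± 2.67 (SD, n = 7) against 14.7 CPM ± 4.46 (SD, n = 7), with a log2FC of -1.23 (SE 0.27, adjusted p = 0.00204). The other ligands were near the floor or low: Osm, which encodes oncostatin M, had group means of 0.295 to 0.711 CPM and Il11 of 0.0561 to 0.74 CPM. None of the 4 ligands tested passed in the ONH, in the ONP or between regions at 30 days, nor any of 3 at 7 days.

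Of 9 JAK and STAT genes, 1 was higher and 4 were lower in the ONH at 30 days, where 41.8% of all genes passed. Stat4 was higher (log2FC 1.92, SE 0.43, adjusted p = 0.00225), and Stat5b (-0.69, SE 0.14), Jak2 (-0.59, SE 0.17), Stat2 (-0.65, SE 0.19) and Tyk2 (-0.70, SE 0.22) were lower there. Jak1, the kinase most tied to gp130, had group means of 118 to 125 CPM and passed in no comparison. In either region over time and between regions at 7 days none of the 9 passed by edgeR, and DESeq2 called 1 of them over time in each region (Stat2, lower at 30 days in both) and 0 at 7 days. Of all genes, edgeR called 0% in the ONH, 17% in the ONP and 13.2% at 7 days, and DESeq2 called 2.49%, 20.2% and 19%. At an unadjusted p under 0.05 there were 2 in the ONH (13.9% of all genes), 1 in the ONP and 0 at 7 days. The share of all genes at that p is not given here for the ONP or for 7 days, so those counts cannot be set against it.

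Of 17 inhibitors and adaptors, 6 were higher and 5 lower in the ONH at 30 days, against the same 41.8% of all genes. The higher ones were Ptpn11, the phosphatase SHP2 (log2FC 0.91, SE 0.12), Ptpn2 (0.62, SE 0.13) and Socs7, Socs4, Socs5 and Socs1 (1.19, 0.94, 0.46 and 1.18). The lower ones were Pias3 (-0.81, SE 0.17), which encodes an inhibitor of STAT3, Pias1, Adam17, Socs6 and Adam10. Socs2, which restrains growth hormone signaling, was the 1 pathway gene whose change over time differed between the regions by edgeR (difference 1.97, SE 0.42, adjusted p = 0.0321). DESeq2 called it as well, and also Cebpb (difference 5.95, adjusted p = 0.00412) and A2m (1.76, adjusted p = 0.0327), for which edgeR gave adjusted p of 0.0655 and 0.128. No pathway gene passed the edgeR test when ONH replicate 2 or ONP replicate 3 or 6 at 30 days, or ONH library 1 or ONP library 1 or 6 at 7 days, was left out. Socs2 rose in the ONP from 2.97 CPM ± 1.23 (SD, n = 4) to 6.74 CPM ± 2 (SD, n = 7), with a log2FC of 1.15 (SE 0.34, adjusted p = 0.0386). In the ONH it went from 12.9 CPM ± 1.55 (SD, n = 4) to 7.46 CPM ± 1.9 (SD, n = 7), with a log2FC of -0.82 (SE 0.24, adjusted p = 0.202) and groups that did not overlap. At 7 days its level was higher in the ONH (log2FC 2.13, SE 0.39, adjusted p = 0.0052).

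Of 28 known STAT3 target genes, 26 were tested in the ONP over time, where 5 fell and 1 rose. Of all genes tested there, 17% passed (9.21% lower and 7.82% higher). Those that fell were Lcn2, lipocalin 2 (log2FC -1.67, SE 0.38), Vim, vimentin (-0.82, SE 0.18), Cebpd (-0.79, SE 0.21), Pim3 (-0.75, SE 0.13) and Serpina3n (-0.71, SE 0.15), the last from a family of similar genes, and A2m rose (1.13, SE 0.28). The median log2FC of the 26 target genes tested was -0.29, and -0.01 for all genes. Gfap, the best known target in astrocytes, averaged 12800 CPM ± 2510 (SD, n = 4) in the earlier ONP libraries and 18200 CPM ± 4210 (SD, n = 7) in the later ones and did not pass over time, whereas it was lower in the ONH at 30 days (log2FC -0.50, SE 0.18, adjusted p = 0.0397).

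In the ONH none of 27 target genes passed over time by edgeR, where 0% of all genes did. At an unadjusted p under 0.05 there were 5, against 13.9% of all genes, and DESeq2 called 2 of them, against 2.49% of all genes. The 2 were Cebpd (log2FC -0.78, SE 0.19) and Cebpb (-3.51, SE 0.96), and the latter had an SD of 23.8 CPM about a mean of 21.9 CPM at 7 days. Between regions the targets did not move one way, and 41.8% of all genes passed at 30 days and 13.2% at 7 days. At 30 days Ccnd1, cyclin D1 (log2FC 1.65, SE 0.17), Vim (1.51, SE 0.18), Fosl2 (1.78, SE 0.36), Timp1 (1.76, SE 0.34), Cebpd (1.08, SE 0.19) and Vegfa (0.98, SE 0.21) were higher in the ONH, and Myc (-1.64, SE 0.36), Pim3, Il4ra and Gfap lower. At 7 days 7 of 26 were higher in the ONH, among them Cebpd, Ccnd1, Fosl2, Vim and Timp1, and Pim3 was lower.

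Over the whole pathway list, 0 of 60 genes passed in the ONH over time (0% of all genes). There were 11 at an unadjusted p under 0.05 (13.9% of all genes) and 5 by DESeq2 (2.49% of all genes). In the ONP 3 rose and 6 fell of 59 (17% of all genes passed). Between regions 14 were higher and 14 lower in the ONH of 60 at 30 days (41.8% of all genes), and 10 higher and 2 lower of 57 at 7 days (13.2%). Without the 3 libraries high in microglia markers, the ONP over time gave 5 higher and 19 lower, so this count rested on which libraries were used. The share of all genes called in that fit is not given here, so these counts cannot be set against it.

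**Figure D5:**
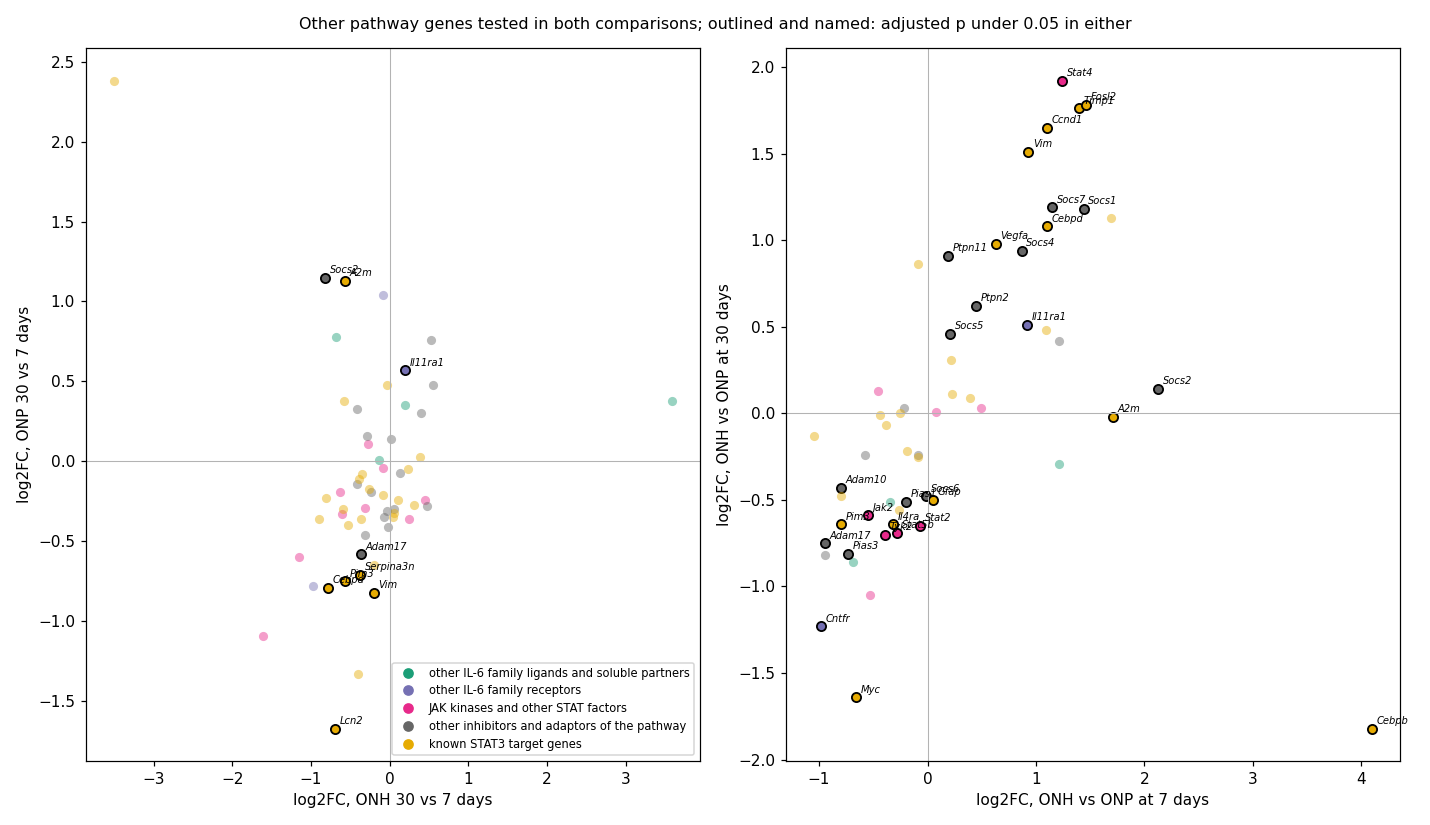
Each point is a pathway gene other than the members, colored by role, with the log2FC of 30 over 7 days in the ONH (x) against the ONP (y) on the left and of ONH over ONP at 7 days (x) against 30 days (y) on the right. Named, outlined genes passed in either comparison; on the left all of these passed in the ONP, with Lcn2 lowest at -1.67 and Socs2 at 1.15.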

How the data were processed

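RNA of HA-tagged ribosomes from pools of mice was amplified from oligo-dT primed cDNA and sequenced, with all libraries prepared together according to the study's methods. The authors aligned reads to mm10 with STAR 2.6.1d and quantified Ensembl transcripts with Salmon 0.14.2. The authors deposited expected counts summed to genes, in whole numbers and not normalized. A table of log2 values deposited with them came from the variance stabilizing transformation of DESeq2 1.34.0 under R 4.1.0, which were used as an alternative only.

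Groups were compared in R 4.3.3 with the quasi-likelihood test of edgeR 4.0.16 on the counts, after filterByExpr and TMM, each pair on its own libraries and the region by day difference over all 4 groups. P-values were adjusted by Benjamini-Hochberg over all genes tested, with 0.05 as the threshold and no log2FC cutoff. CPM values use TMM factors over the 22 libraries. Pair ratios had 0.1 CPM added, and log2 CPM for likeness between genes a prior count of 2. Levels per kb were divided by the exon length in GENCODE M21. Promoter stretches came from RefSeq for every member except Clcf1, which was not searched. The scripts were tested on simulated counts.

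The members, gene lists and tests were chosen with earlier results of these data known. Named were the members, up to 12 called pathway genes with the smallest p per comparison, up to 4 further genes per role, and the 5 genes most like Stat3, Socs3 and Osmr. Pathway genes named beyond 12 in the comparison at 30 days were added after their values were seen. Alternatives were DESeq2 1.42.0, limma 3.58.1 (voom with sample weights, and limma on the deposited log2 values), RLE or library size scaling, mitochondrially encoded genes left out, 2 other filters, all groups in a single fit, the replicate as a block, and each library left out. Of the pathway list, 1 gene is not reported here. Leaving out 3 libraries together, and fitting the libraries of the 7 day block fits with no block, were chosen after seeing the data.

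The study's methods state that ONH and ONP came from the same mice, but not that equal replicate numbers mark a pool. At 30 days same-numbered libraries were taken as pairs, and deviations from group means correlated at 0.0767 to 0.471 within the 7 pairs. ONH replicates 3, 5 and 7 correlated best with their own number in the ONP, and replicates 1, 2, 4 and 6 with another. The blocked fits and the counts of pools at 30 days rest on this pairing. The 7 day columns carry numbers that are not the replicate numbers of the labels, and their blocked fits are given only as alternatives.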

Additional observations from a re-analysis of the deposited data

Results flagged for a closer look

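In 5 of 36 combinations of gene and group, 1 library lay far from the others by Dixon's gap criterion, which chance alone gives in about 1 of 20. Lif was highest in ONH replicate 3 at 30 days, at 6.78 CPM against 1.84 CPM in the next library, and in ONP library 5 at 7 days, at 1.52 CPM against 0.184 CPM. Clcf1 was highest in that same ONP library, at 5.58 CPM against 2.29 CPM, and in ONP replicate 3 at 30 days, at 5.42 CPM against 3.36 CPM. Cntf was lowest in ONP replicate 5 at 30 days, at 42.3 CPM against 76.2 CPM. That library had the lowest astrocyte marker sum of its group (15000 CPM) and the highest oligodendrocyte marker sum (84800 CPM), and their part in its Cntf level was not tested. For no member did the change over time differ between the regions past the threshold.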

How the results depend on the processing

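Depth limits Lif, whose libraries were often at or under 3 counts, and 4 libraries per group limit the comparisons at 7 days. Il6st and Lifr stayed past the threshold between regions in every fit run but the pair on 6 libraries at 7 days, and the causes of the shifts below were not tested.

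For 30 over 7 days in the ONH, genes called were 446 by DESeq2, 292 with all 4 groups in one fit, 2 with no filter, 1 by limma on the deposited log2 values, and 0 to 167 with each library left out (167 without library 5 at 7 days). Pathway genes called were 5 by DESeq2 and 1 with all groups in one fit. Members called were 0 in every fit.

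For 30 over 7 days in the ONP, genes called were 1189 in one fit of all groups and 1439 to 3214 with a library left out (1439 without library 6 at 7 days). Members called were 1 (Il6ra) in one fit, 4 (Cntf, Il6ra, Il6st and Stat3) without the 3 libraries high in microglia markers, and 1 to 3 with a library left out. Pathway genes called were 15 by voom, 24 without the 3 libraries, and 5 to 14 with a library left out (5 without library 6 at 7 days, 14 without replicate 5 at 30 days). The share of all genes called without the 3 libraries is not given here. On the 8 libraries whose numbers occur at both days, from different mice, 1140 genes, 1 member (Stat3) and 5 pathway genes passed, and 423, 0 and 4 with the number as a replicate block (Stat3 adjusted p = 0.0541, Il6ra 0.0985). In the ONH both fits called 0 genes.

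Between regions at 30 days, 5 members passed by voom, by limma on the deposited values and with the replicate block, and 2 to 3 with a library left out. The replicate block added Il6ra and Stat3, called 6717 genes, and changed no other member's call. Without it, Stat3 passed without ONH replicate 2 (adjusted p = 0.0351) or 3 (0.0186), and Il6ra without ONP replicate 5 (0.0319) or 7 (0.0273). At 7 days genes called were 3211 by DESeq2, 3785 in one fit, and 1102 to 2379 with a library left out (1147, 1173 and 1102 without ONP libraries 2, 5 and 6). Members called were 4 in one fit (adding Clcf1 and Socs3) and 2 to 3 with a library left out, and pathway genes 7 to 16 (7 without ONP library 2 or 6). On the 6 libraries whose column numbers occur in both regions, 913 genes, 0 members and 3 pathway genes passed, and 879, 0 and 3 with the number as a replicate block. Deviations of those 3 pairs correlated at 0.0212, 0.0117 and 0.146, and 2 of the 3 ONH libraries correlated best with their own number.

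For the region by day difference, genes called were 409 by DESeq2, 55 by voom, 50 with no filter, 184 with the pool as a random replicate block, and 22 to 318 with a library left out, over 1.5 times from the main 91 for 14 of 22 libraries. Pathway genes called were 3 by DESeq2 and 0 to 4 with a library left out.

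Directions turned only for members that did not pass. Lif turned in the ONH over time by voom (-0.65) and between regions at 30 days by voom (-2.08), limma on the deposited values (-0.43), the replicate block (-1.28) and without the 3 libraries (-0.03). Il6st turned in the ONH over time by voom (-0.01). Clcf1 turned in the ONP over time by limma on the deposited values (0.04), library size (0.08) and without the 3 libraries (0.05), and between regions at 30 days without the 3 libraries (-0.04). Cntf turned between regions at 7 days by library size (0.09). The Osmr region by day difference turned by DESeq2, voom, RLE and the 10 count filter (0.02 each), no filter (0.01) and library size (0.13). With each library left out the log2FC ranged from -0.12 to 0.15 (Il6st), -0.26 to 0.07 (Lifr) and -0.46 to 0.13 (Osmr) in the ONH over time, from -0.23 to 0.44 (Clcf1) in the ONP, from -1.51 to 0.54 (Lif) between regions at 30 days, from -0.23 to 0.10 (Cntf) and -0.38 to 0.04 (Il6ra) at 7 days, and from -0.94 to 3.73 (Lif), -0.40 to 0.16 (Osmr) and -0.13 to 0.27 (Stat3) for the region by day difference.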
